A study of Mus musculus with 20 samples.

Results

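The genes for potassium channel subunits and for the HCN channels were followed in mouse dorsal root ganglia after a cut of the sciatic nerve. Of the 78258 gene identifiers in the exonic count table, 96 were members. They were found by symbol alone (Kcn with further letters and a number, or Hcn with a number). All 96 had counts in at least 1 library, and 89 passed the filter on low counts and were tested.

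Potassium channels let potassium leave the cell and so pull the membrane away from firing. In sensory neurons the Kv1, Kv4 and Kv7 channels set the threshold and the spacing of action potentials, the tandem-pore (K2P) channels hold the resting potential, and the calcium-activated BK and SK channels shape the afterhyperpolarization. HCN channels open on hyperpolarization, carry an inward cation current and favour repetitive firing. Loss of potassium channel subunits and gain of HCN current in the ganglia are known from work on nerve injury and neuropathic pain.

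The ganglia of lumbar levels 4 to 6 came from 10 male mice, which all received tamoxifen (100 mg/kg, injected daily on 5 days at 17 weeks of age). In 5 mice, called cKO, Ahr (aryl hydrocarbon receptor, a ligand-activated transcription factor) was floxed on both alleles (Ahr fl/fl) and a Thy1CRE-ERT2/EYFP transgene was present, a tamoxifen-dependent Cre recombinase made where the Thy1 promoter is active. The 5 control mice were Ahr f/f or f/+ with no Cre named, and their sample titles call them wildtype. At 4 weeks after tamoxifen the sciatic nerve was transected, and 1 day later the ipsilateral and the contralateral ganglia of every mouse were dissociated (2 to 4 h after lights on), which gave 4 groups of 5 libraries of stranded mRNA.

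The reference for injury was therefore the uncut side of a lesioned mouse, and no ganglia of unlesioned mice were analysed here. A spinal cord injury is named in 1 label field, whereas the treatment text describes the sciatic cut, which was taken here as the lesion. Libraries held 76.2 to 118.5 M counts. In cKO mice every ipsilateral library (87.53 to 118.5 M) held more than every contralateral one (76.15 to 87.21 M). The sides overlapped in control mice, with 79.13 to 103.1 M ipsilaterally and 82.25 to 117.4 M contralaterally. Ahr averaged 24.2 ± 2.10 CPM (counts scaled per 1 M of a library) in control and 20.4 ± 0.536 CPM in cKO contralateral libraries, and 34.4 ± 2.86 against 31.9 ± 2.94 CPM on the ipsilateral side (SD, n = 5). Its edgeR adjusted p between genotypes was 0.103 and 1.0, so a lower Ahr level in cKO mice was called on neither side. Summed over 8 marker genes of sensory neurons, none of them at 0, levels ran from 7345 to 8368 CPM in control contralateral, 7439 to 8249 in control ipsilateral, 7310 to 8502 in cKO contralateral and 7099 to 7759 CPM in cKO ipsilateral libraries. Injury called 2 of these 8 markers lower in control and 3 in cKO mice. Of the other 10 marker lists, injury in control mice called 1 gene each of satellite glia (of 5), macrophages (of 6) and endothelium (of 4), all higher, and 0 of Schwann cells, neutrophils, fibroblasts, mural cells, muscle, erythroid cells and lymphocytes. In cKO mice it called 1 of satellite glia and 1 of mural cells higher, 1 of 6 of fibroblasts lower and 0 of the others. The median log2 fold change with injury was -3.48 in cKO and 0.61 in control mice for the 4 muscle markers, -0.50 and 0.32 for the 6 fibroblast markers, and -0.41 and 0.04 for the 4 erythroid markers. In cKO mice 4 of 4 muscle, 5 of 6 fibroblast and 4 of 4 erythroid markers were negative, and in control mice all were positive. The contralateral library of H100 held 1476 CPM of muscle markers, beside 4.22 to 53.9 CPM in the other cKO contralateral libraries. The part of these shifts in the injury values of the members was not tested. In such bulk tissue, fewer cells of a type and less RNA per cell cannot be told apart.

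Levels were compared between members as CPM per kilobase of merged exons, in the control contralateral libraries. The highest was Kcnab2, a cytoplasmic Kv beta subunit, at 203 ± 8.57 CPM per kb (SD, n = 5). It was followed by Kcnip3, a calcium-binding partner of Kv4 channels, at 83.3 ± 3.24. Below these came Kcnd1, a Kv4 pore subunit, at 55.2 ± 1.83, Hcn2 at 54.3 ± 2.02, Kcnip4 at 54.0 ± 1.77, and Kcna1, a Kv1 pore subunit of the axon, at 48.9 ± 4.79 CPM per kb. Kcnd1, Hcn2 and Kcnip4 differed from one another by less than their SDs, so their order is not resolved, while Kcnab2 and Kcnip3 stood clear of them and of each other. Kcna2 (42.6 ± 2.98), Kcnip2 (40.4 ± 1.61), Kcnk1 (33.2 ± 2.54) and Kcna6 (32.1 ± 1.34 CPM per kb) came next.

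**Figure D1:**
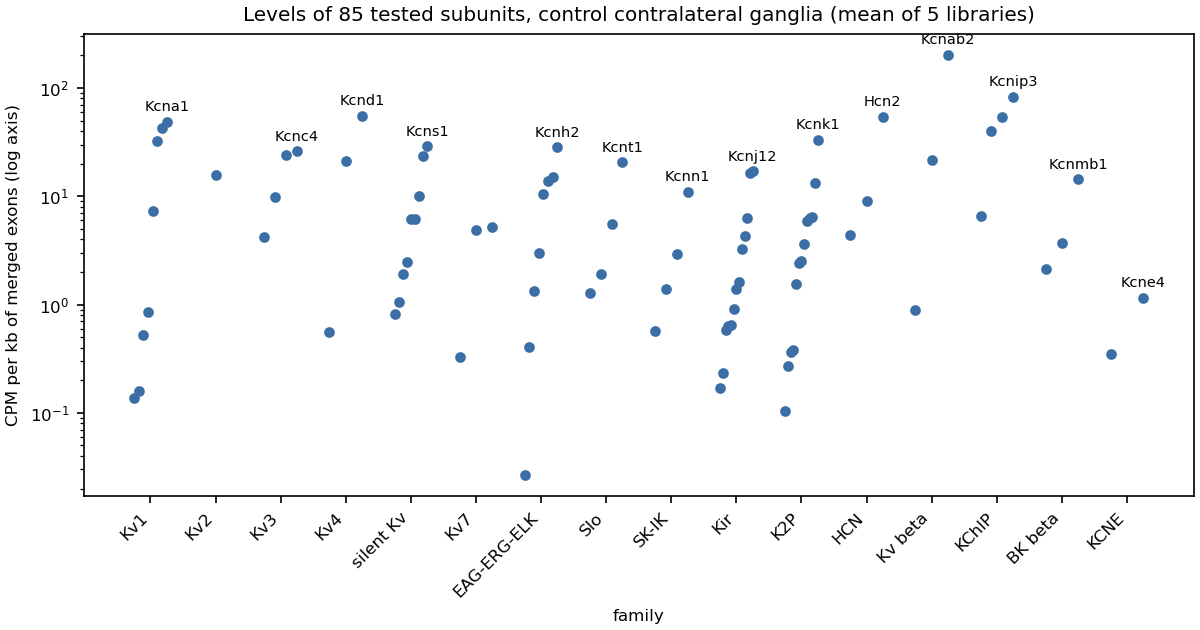
Mean level of 85 of the 89 tested subunits in control contralateral ganglia (n = 5 libraries), in CPM per kilobase of merged exons on a log axis, by channel family. Each point is 1 gene and the highest gene is named in all families but Kv2 and Kv7; Kcnab2 at 203 is the top of all, and Kcnh4 at 0.0268 the bottom.

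Averaged over all 20 libraries, the 3 Kv beta subunits held 19.2% of the summed level per kilobase of the tested members, the 4 KChIP genes (Kcnip1 to Kcnip4) 15.6% and the 8 Kv1 genes 11.1%. The 13 tested K2P genes held 6.65%, the 4 HCN genes 6.79% and the 13 tested inward rectifier (Kir) genes 4.62%. Taken family by family, the Kv beta and KChIP auxiliary subunits thus led the levels, as the plot of levels by family shows. The other auxiliary families were low, with 1.79% for BK beta and 0.161% for KCNE. Kcnab2 alone gave 189.7 of the 209.4 CPM per kb summed over the Kv beta genes. In CPM, 83 members averaged at least 1 and 19 at least 100. The 7 members left out by the filter were Kcne1, Kcne2, Kcnj1, Kcnj5, Kcnk15, Kcnmb3 and Kcnv2, with 0 to 18 counts per library.

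The effect of the nerve cut was asked first, as ipsilateral against contralateral ganglia. Across the family of genes the shift was downward and modest. In control mice 53 of 89 members were called (edgeR quasi-likelihood test, Benjamini-Hochberg adjusted p under 0.05), 8 higher and 45 lower. That is 59.6% of members, beside 29.9% of all 28564 tested genes; among all genes 13.8% were called higher and 16.0% lower. The median log2 fold change was -0.19 over the members and -0.0047 over all genes. In cKO mice 52 members were called, 15 higher and 37 lower (58.4%, beside 31.3% of all genes, 16.2% higher and 15.1% lower), with a median of -0.17 against -0.03.

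**Figure D2:**
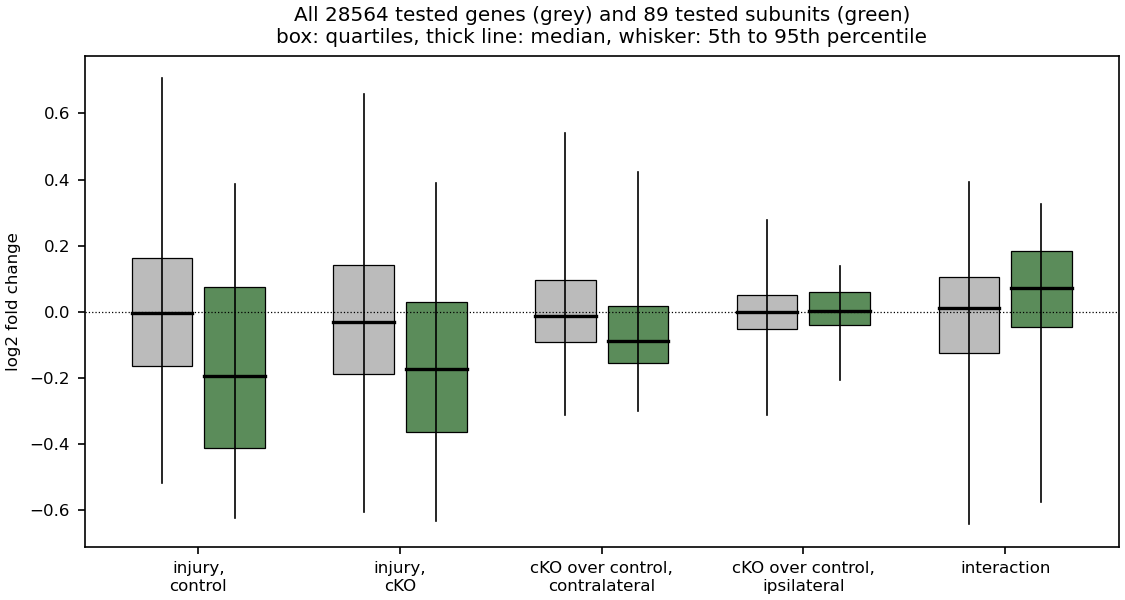
Log2 fold changes of all 28564 tested genes (grey) and of the 89 tested subunits (green) in the 5 comparisons; boxes span the quartiles, the thick line is the median and whiskers run from the 5th to the 95th percentile. The subunit medians are -0.19 and -0.17 in the injury comparisons, below those of all genes, and 0.07 in the interaction.

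Seen by library, the CPM ranges of the sides did not overlap for 46 members in control mice, 8 higher and 38 lower (51.7%, beside 23.6% of all genes, 11.3% higher and 12.3% lower). In cKO mice they did not overlap for 32, 8 higher and 24 lower (36.0%, beside 20.2%, 11.9% higher and 8.32% lower). Called in both genotypes, and in the same direction, were 38 members, of which 31 were lower and 7 higher. The other calls were 15 in control mice alone and 14 in cKO mice alone, and whether these differ between genotypes was tested by the interaction given further on. Shares of all genes for these overlaps, and for changes of at least 2-fold, were not computed here. Large changes were few: among called members 2 rose at least 2-fold in each genotype, and 1 fell that far in control mice and 0 in cKO mice. The one that fell was Kcna10, with 0.343 ± 0.137 and 0.164 ± 0.0455 CPM (log2 fold change -1.08, edgeR adjusted p 0.0218), a call lost without H63 (-1.03, adjusted p 0.0683), H65 (-1.06, 0.0587), H96 (-1.01, 0.0713) or H97 (-0.90, 0.106); it too was named after its values were seen.

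The largest rises by fold were those of Kcnk16 and Kcnh4. Kcnk16 (ENSMUSG00000023387) encodes TALK-1, an alkaline-activated K2P channel best known from pancreatic islets. The control contralateral libraries had 0.751, 0.722, 0.616, 0.556 and 0.561 CPM in mice H62, H63, H65, H96 and H97, and their ipsilateral libraries 2.65, 3.06, 3.44, 4.43 and 2.81 CPM. In cKO mice H61, H64, H95, H99 and H100 the values were 0.375, 0.621, 0.466, 0.567 and 0.372 CPM contralaterally and 3.18, 4.16, 3.62, 3.03 and 3.09 CPM ipsilaterally. Every ipsilateral library lay above every contralateral one, in both genotypes. The log2 fold change was 2.35 (SE 0.159, edgeR adjusted p 3.291e-10) in control and 2.83 (SE 0.164, adjusted p 2.596e-11) in cKO mice, from 30 to 491 counts per library.

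Kcnh4 (ENSMUSG00000035355), which encodes a channel of the ELK group of the ether-à-go-go family, rose by a similar factor from a lower level; it lies under the level limit of the naming rule and was chosen after its values were seen. It had 0.0634, 0.0735, 0.119, 0.149 and 0.125 CPM in the control contralateral libraries and 0.659, 0.386, 0.621, 0.583 and 0.549 CPM in the ipsilateral ones, in the same order of mice. In cKO mice it had 0.0455, 0.152, 0.0888, 0.0965 and 0.0497 CPM contralaterally and 0.516, 0.644, 0.530, 0.504 and 0.544 CPM ipsilaterally. The sides again did not overlap, though the contralateral libraries rest on 4 to 18 counts each. The log2 fold change was 2.37 (SE 0.253, edgeR adjusted p 3.394e-07) in control and 2.65 (SE 0.265, adjusted p 1.066e-07) in cKO mice.

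Since Kcnk16 and Kcnh4 were the members that rose at least 2-fold in both genotypes, the 250 bases before their RefSeq transcription starts (GRCm38.p6, both genes on the minus strand, 5′ to 3′) are shown. The Kcnk16 window is chr14:20269270-20269519 and the Kcnh4 window chr11:100759779-100760028. Capitals mark the letters CACGTG, an E-box, which starts 87 bases before the start site of Kcnh4.
Kcnk16: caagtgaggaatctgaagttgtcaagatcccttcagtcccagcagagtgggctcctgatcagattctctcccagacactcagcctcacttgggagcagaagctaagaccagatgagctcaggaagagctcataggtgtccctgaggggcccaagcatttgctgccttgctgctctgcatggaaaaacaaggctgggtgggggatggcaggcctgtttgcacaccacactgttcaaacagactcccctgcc
Kcnh4: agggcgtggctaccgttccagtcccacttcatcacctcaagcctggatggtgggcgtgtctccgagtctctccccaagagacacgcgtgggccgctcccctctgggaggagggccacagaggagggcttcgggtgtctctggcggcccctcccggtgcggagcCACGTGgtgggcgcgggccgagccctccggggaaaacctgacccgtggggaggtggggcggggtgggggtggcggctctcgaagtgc

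The windows differ in base composition, with 54.8% G and C for Kcnk16 and 70.8% for Kcnh4. Neither held the AP-1 letters TGANTCA or the CRE letters TGACGTCA on either strand. Windows were given for 69 of the 96 members (94 windows, as some genes have several starts). Of these, 4 held the AP-1 letters (4.26%, beside 6.75% of all 32851 windows), 0 the CRE letters (beside 1.55%) and 6 the E-box (6.38%, beside 6.02%). A match of letters is a description and not a bound site.

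Rises in both genotypes were smaller for Kcnmb4, Kcnj10, Kcnk10 and Kcnn4. Kcnmb4, the neuronal beta4 subunit of BK channels, had 12.7, 12.5, 12.7, 12.2 and 11.7 CPM in the control contralateral and 15.03, 16.1, 15.9, 16.2 and 16.1 CPM in the ipsilateral libraries. The cKO mice had 12.3, 12.7, 12.6, 12.6 and 12.1 against 16.8, 17.2, 16.8, 15.7 and 15.2 CPM. Contralateral values were nearly the same in all 10 mice, and the ipsilateral ones were all higher. Its log2 fold change was 0.36 (SE 0.0391, edgeR adjusted p 4.267e-07) in control and 0.39 (SE 0.0391, adjusted p 1.1e-07) in cKO mice.

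Hcn2, the HCN gene with the highest level per kilobase and the one tied to inflammatory pain, fell, from 173 ± 6.45 to 152 ± 6.45 CPM in control (log2 fold change -0.19, edgeR adjusted p 0.00522) and from 170.3 ± 14.9 to 151 ± 7.83 CPM in cKO mice (-0.17, adjusted p 0.00965; SD, n = 5). With only the cKO libraries in the fit that of Hcn2 in cKO mice was -0.16 and no longer called (adjusted p 0.0771). Hcn4 was called in neither, with 27.1 ± 1.32 and 28.6 ± 3.57 CPM in control and 28.6 ± 1.59 and 28.6 ± 1.68 CPM in cKO mice. Hcn3 is described with the genotype comparisons.

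Kcnj10, the Kir4.1 channel through which satellite glia take up potassium, rose from 89.1 ± 1.80 to 109.6 ± 5.13 CPM in control mice (log2 fold change 0.30, SE 0.079, edgeR adjusted p 0.00671) and from 83.1 ± 13.8 to 99.05 ± 6.10 CPM in cKO mice (0.25, SE 0.0791, adjusted p 0.0187). The call of Kcnj10 in cKO mice was lost without H61 (0.23, adjusted p 0.0739) or H100 (0.17, adjusted p 0.0793), and with only the cKO libraries in the fit (0.27, adjusted p 0.0771). Of 5 other markers of satellite glia 1 was called higher in each genotype, and the summed level ran from 1462 to 1623 CPM contralaterally and 1643 to 1862 CPM ipsilaterally in control, and from 1461 to 1802 and 1583 to 1786 CPM in cKO mice, with none of the 5 at 0. Their part in the rise of Kcnj10 was not tested.

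Kcnk10 (TREK-2, a mechano- and heat-gated K2P channel) rose by 0.25 (SE 0.0554, edgeR adjusted p 0.0017) in control and 0.32 (SE 0.0555, adjusted p 1.462e-04) in cKO mice, from 13.7 to 16.3 and from 13.0 to 16.2 CPM. Kcnn4, the intermediate-conductance calcium-activated channel, rose by 0.24 in both (adjusted p 0.0175 and 0.0164), from 14.96 ± 1.33 to 17.7 ± 1.84 and from 14.3 ± 1.34 to 16.9 ± 0.843 CPM. The call of Kcnn4 was lost without H62 in control mice (0.22, adjusted p 0.0673), and without H61 (0.22, adjusted p 0.0690) or H100 (0.21, adjusted p 0.0625) in cKO mice.

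**Figure D3:**
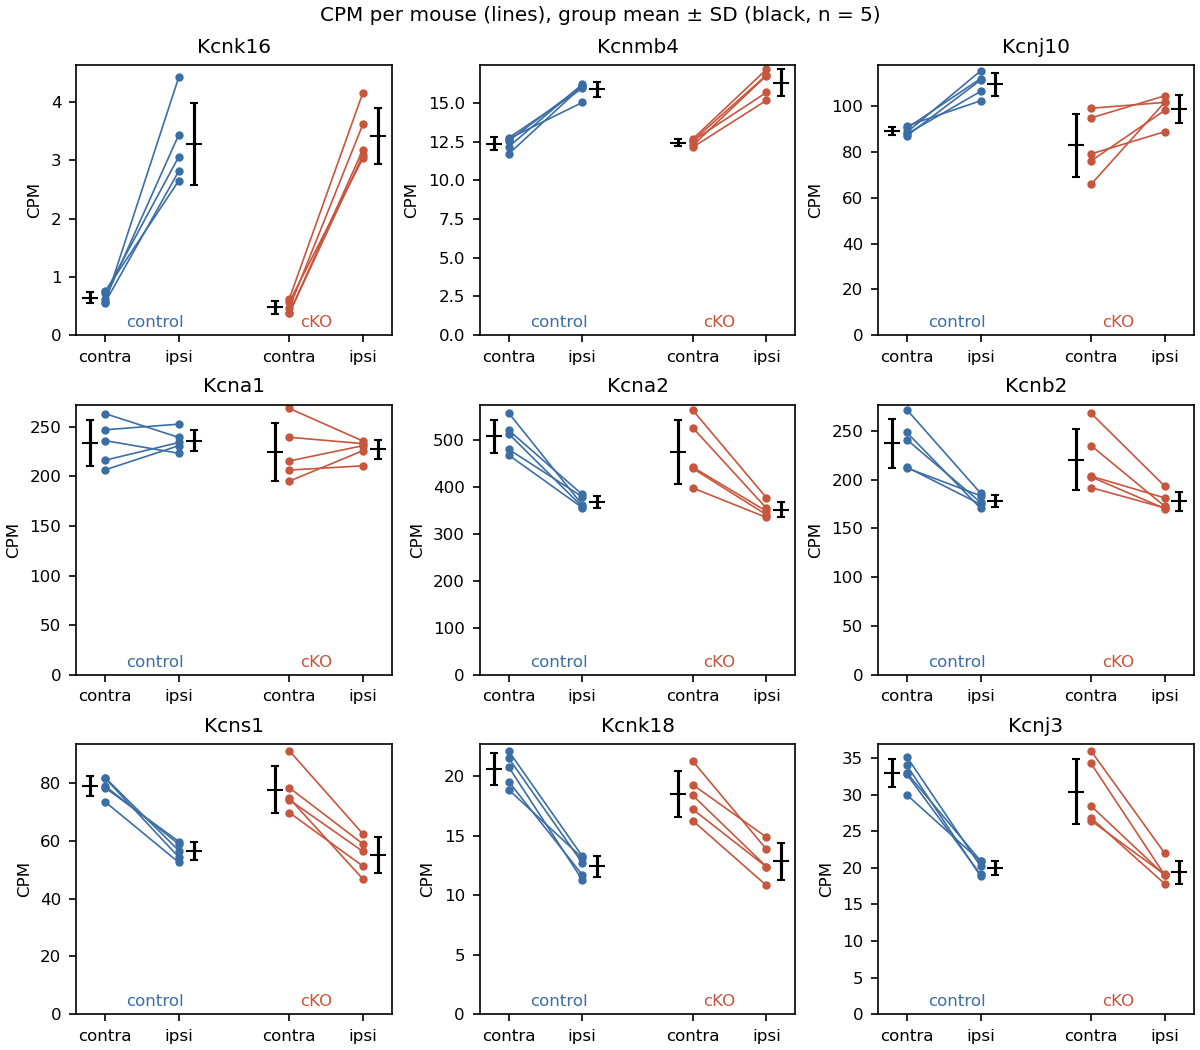
CPM of 9 subunits in every library, with a line joining the contralateral and ipsilateral library of each mouse and black bars for the group mean ± SD (n = 5; each axis starts at 0). Lines of Kcnk16, Kcnmb4 and Kcnj10 go up in all 10 mice, those of Kcna2, Kcnb2, Kcns1, Kcnk18 and Kcnj3 go down in all 10, and those of Kcna1 go both ways.

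Of 39 tested voltage-gated pore and silent subunits, 24 were called lower and 1 higher in control mice (64.1%, beside 29.9% of all genes). In cKO mice 18 were lower and 4 higher (56.4%, beside 31.3%). Of the 8 Kv1 genes 4 were called lower and 0 higher in control mice, beside the 29.9% of all genes called. In cKO mice 2 were lower and 1 higher, so 3 of 8 were called, near the 31.3% of all genes. Kcna2, the Kv1.2 subunit that dampens excitability of large sensory neurons, had 479, 520.2, 513, 467 and 557 CPM in the control contralateral and 378, 383, 357, 355 and 361 CPM in the ipsilateral libraries. Those of cKO mice had 525, 441, 397, 563 and 439 against 354, 348, 334, 376 and 340.2 CPM. The highest ipsilateral library lay below the lowest contralateral one in both genotypes, and the contralateral spread was wider in cKO, with H99 highest and H95 lowest. The fall was 27.6% in control (log2 fold change -0.47, SE 0.072, edgeR adjusted p 3.875e-05) and 25.9% in cKO mice (-0.43, SE 0.072, adjusted p 8.962e-05).

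Kcna1, which assembles with Kcna2 in the juxtaparanodal axon, was not called, with 216, 247, 236, 207 and 263 CPM in the control contralateral and 234, 253, 223, 231 and 239 CPM in the ipsilateral libraries. Contralateral and ipsilateral libraries overlapped, and the log2 fold change of Kcna1 was 0.01 (SE 0.0737) in each genotype. Kcna4 (Kv1.4, the rapidly inactivating subunit of small nociceptors) fell from 35.1 ± 1.11 to 25.2 ± 1.15 CPM in control (-0.48, edgeR adjusted p 2.442e-06) and from 31.2 ± 3.20 to 25.8 ± 1.78 CPM in cKO mice (-0.28, adjusted p 0.00105). Kcna5 was the Kv1 gene called higher in cKO mice, from 1.96 ± 0.337 to 2.54 ± 0.291 CPM (0.37, adjusted p 0.0229). That call was lost without H95 (0.32, adjusted p 0.0982) or H100 (0.29, adjusted p 0.117).

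Kcnb2, a slow delayed rectifier of the Kv2 family, fell from 237 ± 25.3 to 178 ± 6.38 CPM in control (log2 fold change -0.41, edgeR adjusted p 4.795e-04) and from 220.4 ± 31.2 to 178 ± 9.76 CPM in cKO mice (-0.31, adjusted p 0.00522; SD, n = 5).

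The silent Kv genes, whose products do not conduct alone but join Kv2 subunits and change their gating, fell alongside. In control mice 7 of 9 tested were lower (77.8%, beside 29.9% of all genes called). In cKO mice 6 of 9 were lower (66.7%, beside 31.3%), and 0 were higher in either genotype. Kcns1 (Kv9.1, variants of which are tied to pain sensitivity) had 73.5, 78.4, 81.7, 79.0 and 81.8 CPM in the control contralateral and 52.5, 59.7, 54.3, 58.9 and 56.6 CPM in the ipsilateral libraries. Values in cKO mice were 78.4, 74.7, 69.8, 91.2 and 74.2 against 58.9, 46.8, 51.2, 62.4 and 56.3 CPM. No ipsilateral library reached the contralateral range of its genotype. The log2 fold changes of Kcns1 were -0.48 (SE 0.0714, edgeR adjusted p 2.502e-05) and -0.49 (SE 0.0714, adjusted p 1.843e-05), and those of Kcns3 were -0.33 (adjusted p 3.367e-06) and -0.36 (adjusted p 9.969e-07).

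Of the Kv3 genes, which speed repolarization, 3 of 4 were called lower in control mice, beside 16.0% of all genes. In cKO mice 2 of 4 were called lower, beside 15.1%. Kcnc4 (Kv3.4), the highest of them per kilobase, had 95.9 ± 15.6 and 83.8 ± 4.58 CPM in control and 80.2 ± 14.8 and 85.2 ± 3.80 CPM in cKO mice, and was called in neither. Among the A-type Kv4 genes Kcnd1 fell from 292 ± 9.65 to 231 ± 11.1 CPM in control (log2 fold change -0.33, edgeR adjusted p 1.662e-04) and from 255 ± 30.2 to 228 ± 11.8 CPM in cKO mice (-0.16, adjusted p 0.0424). The second of these calls was lost in 9 alternatives, namely without a filter on low counts (-0.14, adjusted p 0.159), with only the cKO libraries in the fit (-0.14, 0.182), and without H61 (Kcnd1 -0.15, adjusted p 0.131), H62 (-0.16, 0.0518), H63 (-0.16, 0.0551), H96 (-0.16, 0.0616), H97 (-0.16, 0.0507), H99 (-0.11, 0.0707) or H100 (-0.18, 0.0654). The KChIP partners of Kv4 channels were called lower in 4 of 4 cases in control mice, beside 16.0% of all genes. In cKO mice 2 of 4 were lower, beside 15.1%. Kcnip2 had log2 fold changes of -0.47 in control and -0.30 in cKO mice, and Kcnip1 -0.44 and -0.46. The edgeR adjusted p of Kcnip1 and Kcnip2 was 1.105e-04 or less. Kcnip3, the KChIP gene with the highest level per kilobase, had 295 ± 11.5 and 269.7 ± 9.97 CPM in control (-0.13, adjusted p 0.0295) and 293 ± 24.0 and 275 ± 5.85 CPM in cKO mice (-0.09, adjusted p 0.131); its control call was lost without a filter (-0.12, 0.0544) and without H63 (-0.11, 0.137), H96 (-0.11, 0.154) or H97 (-0.11, 0.126), and it was called in cKO mice without H95 (-0.12, 0.0333). Kcnab2, which joins Kv1 pore subunits, fell from 1129.9 ± 47.8 to 1012 ± 24.9 CPM in control (-0.16, adjusted p 0.00472) and from 1103 ± 68.3 to 987 ± 34.1 CPM in cKO mice (-0.16, adjusted p 0.00419; -0.14 and 0.0521 with only the cKO libraries).

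**Figure D4:**
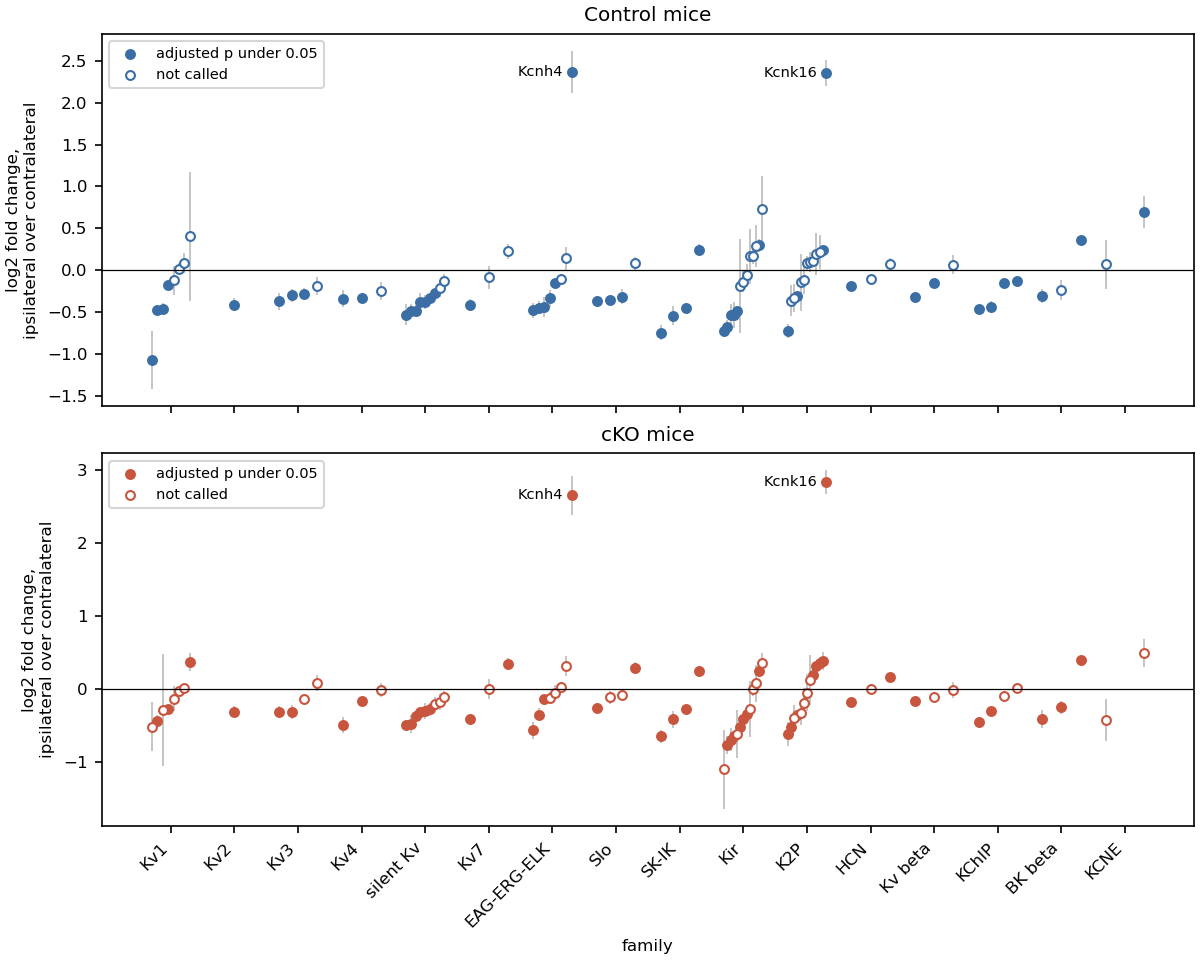
Log2 fold change of ipsilateral over contralateral ganglia for 85 of the 89 tested subunits by family, in control (top) and cKO mice (bottom). Bars are SE derived from the F statistic of the edgeR test, and filled points have an adjusted p under 0.05. All silent Kv points lie below 0, and Kcnk16 and Kcnh4 stand alone above 2.

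The Kv7 genes carry the M-current, which holds neurons below threshold. Kcnq5 fell by 0.41 in control (edgeR adjusted p 3.253e-05) and 0.40 in cKO mice (adjusted p 4.012e-05), from 37.9 ± 1.51 to 28.5 ± 1.55 and from 36.7 ± 3.73 to 27.7 ± 2.24 CPM. Kcnq3 had 76.4 ± 5.23 and 89.1 ± 1.75 CPM in control (log2 fold change 0.22, adjusted p 0.0608) and rose from 70.6 ± 11.7 to 89.5 ± 8.83 CPM in cKO mice (0.34, adjusted p 0.00501). Without H64 the Kcnq3 call in cKO mice was lost (0.24, adjusted p 0.0512). In control mice Kcnq3 was called without H64 (0.22, adjusted p 0.0394), H95 (0.24, 0.0320) or H99 (0.23, 0.0345), with DESeq2 (0.23, 0.0264), with a mean of 1 CPM or more as filter (0.23, 0.0403) and with only the control libraries (0.24, 5.595e-04).

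In the ether-à-go-go group 5 of 8 genes were lower and 1, Kcnh4, higher in control mice. Among all genes 29.9% were called there, 16.0% lower. In cKO mice 3 of 8 were lower and 1 higher, beside 31.3% of all genes called, 15.1% lower. Kcnh7 (an ERG channel) fell from 229 ± 26.3 to 164 ± 8.54 CPM in control (log2 fold change -0.48, edgeR adjusted p 3.567e-04) and from 206 ± 33.2 to 162 ± 7.89 CPM in cKO mice (-0.35, adjusted p 0.00482), and was chosen after its values were seen. Kcnh2, an ERG channel and the highest of the group per kilobase, had 137 ± 5.14 and 123 ± 2.78 CPM in control (-0.15, adjusted p 0.0226) and 132 ± 12.3 and 120.1 ± 6.50 CPM in cKO mice (-0.14, adjusted p 0.0371). The Kcnh2 call was lost without H63 (-0.14, adjusted p 0.0761), H65 (-0.13, 0.103), H96 (-0.15, 0.0658) or H97 (-0.13, 0.0919) in control, and without H61 (-0.14, 0.0728), H64 (-0.13, 0.0899), H96 (-0.13, 0.0581) or H100 (-0.15, 0.0574), without a filter (-0.12, 0.108) and with only the cKO libraries (-0.12, 0.189) in cKO mice. Kcnh5 fell by 0.56 in cKO (adjusted p 8.523e-04) and by 0.44 in control mice (adjusted p 0.00677).

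The calcium-activated SK genes Kcnn1, Kcnn2 and Kcnn3 all fell in both genotypes, the largest being Kcnn2 (SK2). It had 9.18, 10.2, 10.4, 11.1 and 10.5 CPM in the control contralateral and 6.15, 5.39, 6.41, 5.97 and 6.68 CPM in the ipsilateral libraries, and 9.92, 7.94, 10.9, 10.01 and 10.5 against 7.27, 5.24, 5.98, 6.11 and 6.95 CPM in cKO mice. All ipsilateral libraries lay below all contralateral ones of their genotype. The log2 fold change of Kcnn2 was -0.75 (SE 0.0899, edgeR adjusted p 1.555e-06) and -0.65 (SE 0.0896, adjusted p 9.499e-06).

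Kcnma1, the BK pore subunit, had 93.1 ± 7.28 and 98.7 ± 5.02 CPM in control mice (log2 fold change 0.08, edgeR adjusted p 0.465) and rose from 83.2 ± 11.7 to 102 ± 6.61 CPM in cKO mice (0.29, adjusted p 0.00632), where the Kcnma1 call was lost without H64 (0.21, adjusted p 0.0614). Of its beta subunits Kcnmb1 fell in both (-0.30 and -0.25, adjusted p 0.00863 and 0.0259) while Kcnmb4 rose. The calls of Kcnmb1 were lost without H63 (-0.25, adjusted p 0.0689) and with only the control libraries in the fit (-0.29, 0.0802) in control mice, and without H61 (-0.23, 0.0969), H64 (-0.26, 0.0732) or H95 (-0.23, 0.0948) and with no filter (-0.23, 0.105) in cKO mice.

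Among inward rectifiers 5 of 13 tested were lower and 1 higher in control mice (46.2%, beside 29.9% of all genes called). In cKO mice 6 were lower and 1 higher (53.8%, beside 31.3%), Kcnj10 being the 1 higher in both. Among all genes 16.0% were called lower in control and 15.1% in cKO mice. Kcnj3 (GIRK1, opened by G proteins below opioid and other receptors) had 29.97, 34.0, 33.0, 32.8 and 35.2 CPM in the control contralateral and 20.9, 18.9, 21.0, 19.1 and 20.2 CPM in the ipsilateral libraries. The cKO libraries held 34.3, 26.5, 26.8, 36.0 and 28.5 against 19.0, 19.1, 17.8, 22.0 and 19.0 CPM. The sides did not overlap in either genotype, and H99 was the highest cKO contralateral library. The log2 fold change of Kcnj3 was -0.72 (SE 0.0773, edgeR adjusted p 3.59e-07) and -0.65 (SE 0.0772, adjusted p 1.3e-06), that of Kcnj4 (Kir2.3) -0.68 (adjusted p 1.147e-06) and -0.42 (adjusted p 3.483e-04), and that of Kcnj11, the pore of ATP-sensitive channels, -0.53 (adjusted p 0.00399) and -0.52 (adjusted p 0.00437). Kcnj9 (GIRK3) fell from 2.48 ± 0.695 to 1.72 ± 0.197 CPM in control (-0.53, adjusted p 0.0122) and from 2.79 ± 0.366 to 1.73 ± 0.229 CPM in cKO mice (-0.69, adjusted p 0.00148); the Kcnj9 call in control mice was lost without H65 (-0.48, adjusted p 0.0543) or H97 (-0.39, 0.0744).

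Of 13 tested K2P genes 2 were called higher and 2 lower in control mice (30.8%, near the 29.9% of all genes), and 5 higher and 3 lower in cKO mice (61.5%, beside 31.3%). Kcnk18 (TRESK, the background channel of nociceptors) had 18.9, 20.8, 22.1, 19.5 and 21.5 CPM in the control contralateral and 13.1, 11.3, 13.3, 11.7 and 12.7 CPM in the ipsilateral libraries, and 18.4, 16.3, 17.2, 21.2 and 19.3 against 12.4, 10.8, 12.4, 13.8 and 14.9 CPM in cKO mice. Here too the sides did not overlap. Its fall was 39.6% in control (log2 fold change -0.73, SE 0.0803, edgeR adjusted p 5.158e-07) and 30.4% in cKO mice (-0.52, SE 0.0801, adjusted p 3.132e-05). Kcnk1 (TWIK-1), the K2P gene with the highest level per kilobase, fell by 0.31 (adjusted p 9.675e-04) and 0.35 (adjusted p 3.134e-04). The halothane-inhibited Kcnk13 (THIK-1) and its relative Kcnk12 (THIK-2) had log2 fold changes of 0.08 and 0.09 in control mice (adjusted p 0.482 and 0.618) and rose in cKO mice, from 16.9 ± 2.11 to 21.7 ± 0.788 CPM (0.36, adjusted p 0.00136) and from 22.5 ± 2.66 to 29.4 ± 3.44 CPM (0.39, adjusted p 0.0181). The call of Kcnk12 was lost without H64 (0.36, adjusted p 0.0693) or H95 (0.37, 0.0552).

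Kcnk2 (TREK-1) was lower in all 10 mice but unevenly so. Its contralateral libraries had 19.1, 19.2, 16.3, 17.4 and 17.6 CPM in control and 17.3, 15.7, 31.4, 16.2 and 31.8 CPM in cKO mice, against 13.1 to 15.03 and 13.2 to 16.8 CPM ipsilaterally. The cKO values of H95 and H100 stood far above the other 3. The log2 fold change of Kcnk2 was -0.34 in control (edgeR adjusted p 0.158) and -0.62 in cKO mice (adjusted p 0.0094), the latter not called without H95 (-0.44, adjusted p 0.0683) or with only the cKO libraries in the fit (-0.60, adjusted p 0.0833). With only the control libraries in the fit Kcnk2 was called in control mice (-0.32, adjusted p 5.836e-04).

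Among the small KCNE accessory subunits, Kcne3 rose in control mice from 0.624 ± 0.190 to 1.01 ± 0.121 CPM (log2 fold change 0.69, edgeR adjusted p 0.00881; 0.59 and 0.0518 without H65). In cKO mice Kcne3 had 0.709 ± 0.132 and 1.00 ± 0.204 CPM (0.50, adjusted p 0.0537), and it was called there without H62 (0.50, adjusted p 0.0335), H96 (0.50, 0.0460) or H99 (0.59, 0.0421), with DESeq2 (0.50, 0.0433) and with only the cKO libraries (0.51, 0.0446). Kcne4, the highest of the family per kilobase, was called in neither, with 3.07 ± 0.625 and 3.23 ± 0.472 CPM in control and 4.21 ± 2.08 and 3.13 ± 1.35 CPM in cKO mice.

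The genotypes were then set against each other on the uncut side. There 0 of 89 members were called by edgeR, beside 0.0735% of all genes (0.0245% higher and 0.049% lower in cKO), and the CPM ranges of the genotypes were apart for 0, beside 1.52% (0.448% higher and 1.07% lower). At an unadjusted p under 0.05 were 25 of 89 members, beside 5006 of 28564 genes, and 62 had a negative sign (lower in cKO), with a median log2 fold change of -0.09 against -0.01 for all genes. DESeq2 called 5 members lower (Hcn3, Kcna6, Kcnab1, Kcng2 and Kcnt1), beside 3.64% of all genes (2.34% higher and 1.31% lower).

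The smallest p-values were those of Kcna6, Kcng2 and Kcnt1. Kcna6 (Kv1.6) had 181, 193, 189, 188 and 203 CPM in control and 164, 149.6, 175, 186 and 163 CPM in cKO contralateral libraries. Kcng2 (a silent subunit) had 22.6, 17.1, 17.6, 18.3 and 17.0 against 14.1, 13.7, 13.4, 18.3 and 14.6 CPM, its annotated exons overlapping D330025C20Rik (0.708 CPM) on the opposite strand by 9.10%. Kcnt1 (Slack, a sodium-activated channel of nociceptors) had 183, 193, 193, 204 and 203 against 176, 156, 149, 198 and 167 CPM. In each of the 3 genes 4 cKO libraries lay below the control range and that of H99 lay within it. The log2 fold changes were -0.19 (SE 0.0445, edgeR adjusted p 0.0893), -0.32 (SE 0.0884, adjusted p 0.107) and -0.21 (SE 0.0562, adjusted p 0.108).

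**Figure D5:**
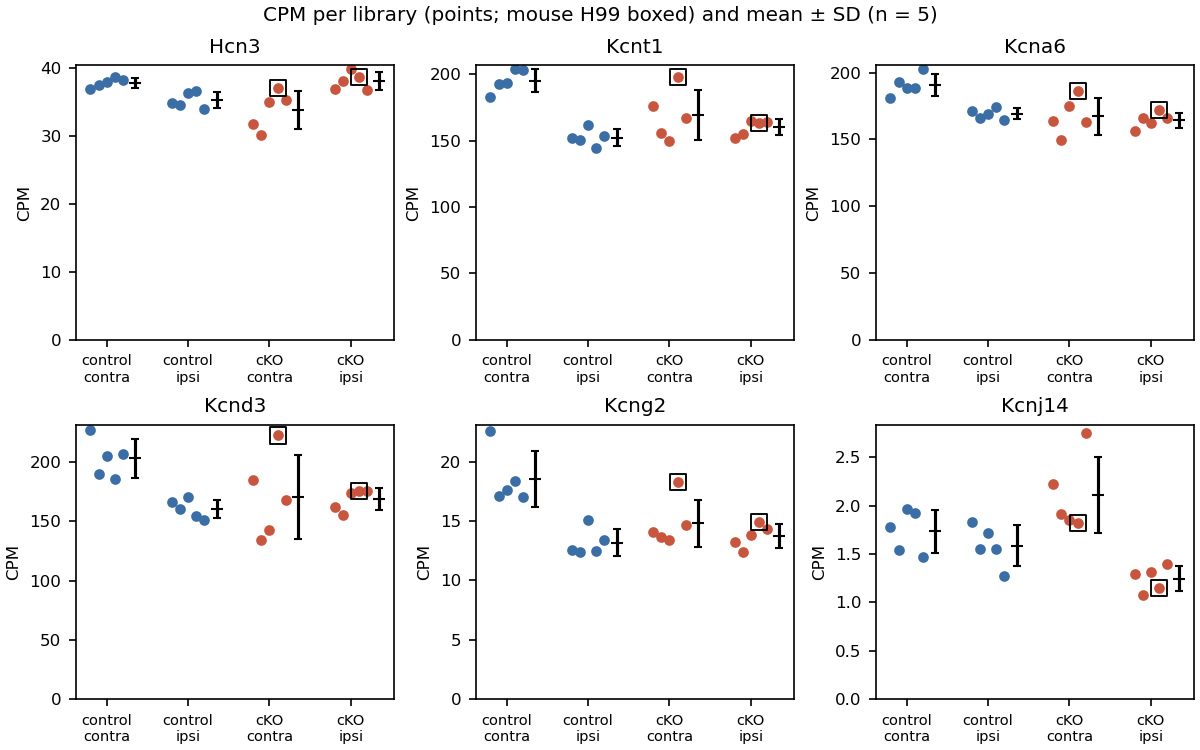
CPM of 6 subunits in every library of the 4 groups, with black bars for the mean ± SD (n = 5; axes start at 0) and mouse H99 boxed. In Hcn3, Kcnt1, Kcna6, Kcnd3 and Kcng2 the H99 library is the highest of the cKO contralateral group, and in Kcnj14 it is the lowest.

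Mouse H99 decided this count. Without it 21 members were called, 20 lower and 1 higher in cKO, beside 11.5% of all genes (6.52% lower, 5.02% higher). The lower ones then included Kcna6 (log2 fold change -0.23, edgeR adjusted p 0.00335), Kcnt1 (-0.27, adjusted p 0.00337), Kcnd1 (-0.26, adjusted p 0.00319), Kcng2 (-0.41, adjusted p 0.00472) and Kcnd3 (-0.37, adjusted p 0.0101), and the higher one was Kcnj2 (1.06, adjusted p 0.0436), a Kir2.1 channel. Leaving out any 1 other mouse gave 0 calls, and without H95 14 members had an unadjusted p under 0.05 and the median was -0.04.

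Beside these values, the summed levels of 6 fibroblast markers, none at 0, were 964, 811, 625, 622 and 635 CPM in control and 774, 1694, 1405, 698 and 1222 CPM in cKO contralateral libraries, with H99 the lowest of the cKO group, and 5 of the 6 had an unadjusted p under 0.05 with 0 called by edgeR. On the ipsilateral side the control sums were 700.1 to 1042 CPM and the cKO sums 664 to 1187 CPM. Neuron markers were highest in H99 (8502 CPM) and lowest in H95 (7310 CPM) among cKO contralateral libraries. The cKO sums were 16.9 (H99) to 137 CPM for 4 neutrophil markers, 48.2 (H99) to 108 CPM for 6 macrophage markers and 259 (H99) to 755 CPM for 4 erythroid markers, beside 30.4 to 89.7, 44.6 to 74.1 and 296 to 635 CPM in control contralateral libraries. The median log2 fold changes of these lists were 0.77, 0.26 and 0.44, with all their genes positive and 0 called by edgeR, none at an unadjusted p under 0.05. The 4 muscle markers had a median log2 fold change of 1.52, also with 0 called, and sums of 4.22 to 1476 CPM (median 13.4, highest in H100) in cKO and 7.22 to 301 CPM (median 56.8) in control contralateral libraries. The part of cell makeup in the genotype differences of the members was not tested.

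On the ipsilateral side 0 of 89 members were called by edgeR and 0 by DESeq2, beside 0.007% of all genes by edgeR (0.0035% in each direction). At an unadjusted p under 0.05 were 3 of 89 members, beside 674 of 28564 genes: Kcnj14 (log2 fold change -0.35, p 0.0121), Hcn3 (0.11, p 0.0214) and Kcnab3 (-0.23, p 0.0474), each with an adjusted p of 1.0. The ranges of the genotypes were apart for 1 member, Hcn3, which was higher in cKO mice, beside 0.599% of all genes (0.364% higher and 0.235% lower). The median log2 fold change was 0.00.

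The interaction asks whether the injury response differed between genotypes; it shares its libraries with the comparisons above, so its values are not independent of them. It called 0 of 89 members with edgeR and 0 with DESeq2, beside 0.0% of all genes with edgeR. At an unadjusted p under 0.05 were 16 members (2799 of all genes), and 58 of 89 had a positive sign, with a median of 0.07 against 0.01. Without H99 it called 1, Kcnt1 (0.33, adjusted p 0.0459), beside 0.149% of all genes. The members called in 1 genotype alone were therefore not shown to respond differently.

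The smallest interaction p was that of Hcn3, a slowly gating HCN subunit. It had 36.9, 37.5, 37.9, 38.7 and 38.3 CPM in control contralateral, 34.9, 34.6, 36.4, 36.7 and 34.0 in control ipsilateral, 31.8, 30.2, 35.02, 37.1 and 35.4 in cKO contralateral and 36.9, 38.2, 40.0, 38.8 and 36.9 CPM in cKO ipsilateral libraries. All 5 control mice were lower on the cut side (log2 ratios of -0.17 to -0.06) and all 5 cKO mice higher (0.06 to 0.34). The interaction was 0.27 (SE 0.063, unadjusted p 3.55e-04, edgeR adjusted p 0.485). Hcn3, Kcnj14 and Kcnt1 were named for having the smallest interaction p-values of the members.

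Kcnj14 (Kir2.4) had log2 fold changes of -0.14 in control and -0.77 in cKO mice, an interaction of -0.63 (SE 0.177, edgeR adjusted p 0.485). Its contralateral libraries had 1.78, 1.54, 1.97, 1.93 and 1.47 CPM in control and 2.23, 1.91, 1.85, 1.82 and 2.76 CPM in cKO mice, and the ipsilateral ones 1.83, 1.56, 1.72, 1.55 and 1.27 against 1.29, 1.08, 1.31, 1.15 and 1.40 CPM. Only the sides of the cKO mice did not overlap. Kcnt1 fell in control mice from 195 ± 8.66 to 152 ± 6.17 CPM (-0.36, edgeR adjusted p 4.482e-05) and had 169 ± 19.2 and 160.1 ± 5.90 CPM in cKO mice (-0.08, adjusted p 0.306), an interaction of 0.28 (SE 0.0795, adjusted p 0.485). Kcnd3 had log2 fold changes of -0.34 in control (adjusted p 0.0150, not called without H62 at -0.31 and adjusted p 0.0574 without H97 at -0.30 and 0.0763, or with no filter at -0.33 and 0.0547) and -0.01 in cKO mice, and an interaction of 0.33 (adjusted p 0.498).

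Proteins that join or place these channels were read from a list of 19 genes outside the symbol rule, 18 of them tested. In control mice 10 were called, 2 higher and 8 lower (55.6%, beside 29.9% of all genes), and in cKO mice 5, 1 higher and 4 lower (27.8%, below the 31.3% of all genes). Dpp10, a transmembrane partner of Kv4 channels, fell by 0.47 in control (edgeR adjusted p 1.104e-05) and 0.28 in cKO mice (adjusted p 0.00214). Pex5l (TRIP8b, the HCN auxiliary subunit) fell by 0.25 (adjusted p 4.69e-05) and 0.20 (adjusted p 4.647e-04), and Amigo1, which binds Kv2 channels, by 0.22 (adjusted p 9.555e-05) and 0.14 (adjusted p 0.00551). Rest, a repressor of neuronal genes that include several potassium channels, rose by 0.45 in control mice (adjusted p 7.701e-04) and had 0.24 in cKO mice (adjusted p 0.0602). Between genotypes and for the interaction 0 of the 18 were called by edgeR, with 6 contralateral, 0 ipsilateral and 1 interaction value at an unadjusted p under 0.05.

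Some members share annotated exon with another gene, and whether the counting used strand is not given in the sources used here, so reads of the partners cannot be told apart from theirs in those stretches. The overlap on the opposite strand took 17.1% of the merged exons of Hcn3 (with Pklr, 0.594 CPM), 39.6% of Kcna6 (with Gm26673, 42.9 CPM), 12.2% of Kcnk2 and 31.1% of Kcnj3. For Kcnmb4 it was 10.7% and 20.8%, with the antisense genes Kcnmb4os1 (6.34 CPM) and Kcnmb4os2 (7.90 CPM). Kcnk16 and Kcnh4 had no such overlap in GENCODE release M21.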

How the data were processed

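Exonic counts per gene were used as deposited; the authors' FPKM table was not used. Per the labels' protocols, RNA of L4 to L6 ganglia was made into stranded mRNA libraries and read as pairs of 150 bases. The submitters' processing notes name HISAT2, Picard, mm10 and mm39, with no roles; the counting program, its annotation release and its strand setting are not given in the sources used here. Identifiers were matched without version to GENCODE M21 (51487 of 78258 had a symbol, holding 98.1% of counts). Merged exon lengths came from the same annotation.

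Of each gene's counts, CPM were computed with TMM-scaled library sizes. All 20 libraries entered 1 group-mean model in edgeR 4.0.16 (R 4.3.3, limma 3.58.1), with filterByExpr (minimum count 10, minimum total 15) and the robust quasi-likelihood test. Each SE given is the absolute log2 fold change divided by the square root of the F statistic of that test. Adjustment was by Benjamini-Hochberg over all 28564 genes, with 0.05 as the limit for a call. The fit was tested on simulated counts, the outcome of which is not reported here. Alternatives were DESeq2 1.42.0, no filter, RLE size factors, genes with a mean of 1 CPM or more, only the libraries compared, the mouse as block, and each mouse left out. Both sides came from the same mouse, which pairs them; the correlations of their deviations from the group means had a median of 0.186 (-0.0546 to 0.361) and were over 0.1 in 7 of 10 mice.

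Named genes were a fixed set of sensory neuron channels, the 6 highest and 6 lowest log2 fold changes of called members per injury comparison (at least 1 CPM in the higher group, 1 sign in all 5 mice), in each genotype comparison and the interaction the 3 smallest p-values where none was called, and the highest member per kilobase of each family. A list of 19 channel partners and 11 lists of cell type markers were also read. Members and lists were chosen with earlier results of these data known. Promoter windows came from RefSeq (GRCm38.p6); protein sequences were not used here. Some members entered the fits and counts but are not reported here by name. Libraries of 76.2 to 118.5 M counts leave little counting error except for the lowest members.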

Additional observations from a re-analysis of the deposited data

Results flagged for a closer look

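Among 176 member-by-group sets of 5 libraries, 10 held a library whose gap to its nearest neighbour, as a share of the whole range, passed the Dixon limit of 0.71; chance at 1 in 20 gives 8.8. Mouse H62 was high on the contralateral side for Kcnc4 (123 CPM against 87.2 to 93.8, ratio 0.816) and Kcng2 (22.6 against 17.0 to 18.3, ratio 0.761), and low there for Kcnmb1 (43.2 against 62.2 to 67.0, ratio 0.796) and Kcns3 (67.5 against 75.004 to 77.2, ratio 0.774). Its ipsilateral library was low for Kcnmb4 (15.03 against 15.9 to 16.2 CPM, ratio 0.774).

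Mouse H96 was low on the ipsilateral side for Kcna5 (2.02 against 2.63 to 2.82 CPM, ratio 0.767) and high on the contralateral side for Kcnn4 (17.3 against 14.2 to 14.5, ratio 0.899). H63 was high ipsilaterally for Kcne4 (4.06 against 2.96 to 3.08, ratio 0.892). In cKO mice, H99 was high contralaterally for Kcng2 (18.3 against 13.4 to 14.6, ratio 0.741) and H64 low ipsilaterally for Kcnn1 (33.8 against 37.4 to 38.4, ratio 0.790).

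Hcn3 was the 1 of 89 members whose injury response had 1 sign in every control mouse and the other in every cKO mouse. The difference was 0.27 on the log2 scale, and its adjusted p was 0.485 in edgeR's test over all genes. How many of all tested genes had such opposite signs was not counted.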

How the results depend on the processing

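No member's called log2 fold change reversed under the alternatives run. For the contralateral genotype comparison, DESeq2 called 5 members in all, 5 lower and 0 higher, where edgeR called 0. Leaving out 1 mouse gave 44 to 55 calls for injury in control mice (7 to 9 higher, 36 to 46 lower) and 44 to 55 in cKO mice (10 to 18 higher, 32 to 37 lower). It gave 0 to 21 contralaterally (0 to 1 higher, 0 to 20 lower), 0 ipsilaterally and 0 to 1 for the interaction (0 to 1 higher), with the top values without H99 in each genotype case. Of the calls, 40 of 53 in control and 34 of 52 in cKO mice were kept in each alternative that tested them; the filter at a mean of 1 CPM tested 83 of the 89 and leaves out Kcnh4, among others. With only the cKO libraries in the fit 42 were called. With the replicate block of the mouse, 55 members were called in control mice (9 higher, 46 lower), 52 in cKO mice (16 higher, 36 lower) and 0 for the interaction, where 27 had an unadjusted p under 0.05. The paired fit added Kcnd2 (-0.25) and Kcnj15 (0.84) in control and Kcnj6 (0.36) in cKO mice, dropped Kcns2 in cKO mice (-0.29) and changed no other member's call. A covariate for the range of mouse numbers, chosen after seeing the data, changed no call. The causes of these shifts were not tested. With 5 mice a genotype, small differences may be missed, and the low counts of Kcnh4 limit its fold.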
